A study of Mus musculus with 3 samples.

Results

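The T cell receptor alpha and delta locus of the mouse was described from its variable segments and constant genes in naive CD4 T cells. The members were all gene entries with symbols that start with Trav or Trdv, plus the constant genes Trac and Trdc, which gave 136 of the 55536 gene entries in the GENCODE M21 annotation. Of these, 113 are annotated as variable genes that are not pseudogenes (functional genes below), 21 as variable pseudogenes and 2 as constant genes, and 118 of the variable segments are named for the alpha chain alone, 10 for both chains (their symbols carry "-dv") and 6 for the delta chain alone. RNA selected for polyA tails was measured in naive thymus-derived CD4 alpha-beta T cells of a male mouse of strain B6.SJL-Ptprca Pepcb/BoyJ aged 5 months, a C57BL/6 congenic line with the CD45.1 form of Ptprc. There was 1 group, with 1 biological replicate and 3 technical libraries, with no treatment or second genotype in the labels. Every SD below is therefore the spread between technical libraries of 1 mouse, and nothing here measures variation between animals or conditions.

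The alpha chain of the receptor is made when a variable (Trav) segment is joined to a joining (Traj) segment, and the transcript is then spliced to the constant gene Trac. The genes of the delta chain lie inside the same locus, between the Trav segments and the Traj segments, so a rearrangement of alpha on a chromosome removes the delta genes from it. The middle of the mouse locus holds a large internal duplication, and segments of its copies carry the letters d and n in their names beside the segments without a letter. The first joins in the thymus use segments close to the joining segments, and repeated joins on the same chromosome can move to segments farther away. In the present data a read counted on a segment does not say whether the transcript was rearranged or in frame, and fewer cells that use a segment and less RNA per cell cannot be told apart.

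Totals of expected counts, the deposited estimates of reads per gene, were 14837442, 18207118 and 17505621 in libraries 1, 2 and 3. The labelled cell type was checked against marker lists: 8 of 8 CD4 T cell markers reached at least 1 TPM (the deposited level, scaled for transcript length and library) in every library, with summed levels from 6610 to 7300 TPM. Of the other lists, 1 of 2 genes for CD8 T cells, 2 of 6 for gamma delta T cells, 1 of 4 for invariant NKT cells, 1 of 4 for mucosal-associated invariant T (MAIT) cells, 2 of 6 for double-positive thymocytes, 2 of 5 for B cells and 1 of 4 for myeloid cells did so. The summed levels ran from 16.9 to 17.4 TPM for the CD8 list, from 5.56 to 5.94 for gamma delta T, from 35.0 to 39.1 for invariant NKT, from 22.4 to 27.8 for MAIT, from 89.6 to 97.1 for thymocytes, from 313 to 419 for B cells and from 2.06 to 3.35 for myeloid cells. Cd8a held 9 counts over all libraries, and Zbtb16, the transcription factor that defines innate-like T cells, held 4. Other members of these lists were higher. Cd8b1, at 17.0 ± 0.235 TPM, gave nearly all of the CD8 sum, and Il2rb, at 36.8 ± 2.15, nearly all of the invariant NKT sum. Il18r1 stood at 24.5 ± 2.67 TPM in the MAIT list and Cd1d1 at 84.6 ± 3.73 in the thymocyte list (SD, n = 3). Most of the B cell sum came from Ighm, at 374 ± 56.3 TPM (SD, n = 3). The part of RNA from other cells in the results below was not tested.

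Trac (chr14:54220521-54224206, plus strand), the constant gene of the alpha chain, stood at 2484, 2222 and 2719 TPM in libraries 1, 2 and 3, from 16904, 19074 and 21624 expected counts. It ranked 28, 46 and 27 among all gene entries by TPM. Library 2 was the lowest and library 3 the highest. After scaling for library size the counts were 19021, 17955 and 20614, and the libraries differed in a chi-square homogeneity test (adjusted p = 6.68e-42), with a ratio of 1.15 between the highest and the lowest. The isoform with 4 exons took 82.1%, 77.8% and 79.6% of the Trac TPM, and the annotated isoform with 3 exons took the rest.

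Trdc (chr14:54142851-54148868, plus strand), the constant gene of the delta chain, lies 77.7 kb from Trac and stood at 3.33, 3.21 and 3.51 TPM, from 109, 136.70 and 136.81 expected counts. Its SD over the libraries was 0.15 TPM, and it was far below Trac in each. The log2 ratio of Trac to Trdc, with a pseudocount of 0.1 TPM, was 9.48 ± 0.08 (SD, n = 3), which is a ratio of 738 ± 41.8 in TPM. All 3 libraries show RNA from both constant genes, and Trdc was above the level that a count of 0 allows (3 counts, or 0.09, 0.07 and 0.08 TPM for this gene).

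Across the locus, 102 of the 136 members reached at least 1 TPM in every library, where 21.4% of all gene entries did. They were 97 of the 113 functional variable genes, 3 of the 21 pseudogenes and both constant genes. All 10 segments named for both chains and 2 of the 6 named for delta alone were among them. Near-identical copies count singly here, and the detection of some rests on how shared reads were divided, as described below. Trav6d-6, identical to Trav6-6, is 1 case, with lower deposited bounds of 0.000505, 0.000934 and 0.000424 TPM. Of the 16 functional genes not detected, 11 had under 50% of their sequence windows, defined below, to themselves. Of the members not detected, 12 had 0 counts in all libraries, 3 of them annotated as functional (Trav7n-6, Trdv2-1 and Trdv4) and 9 as pseudogenes. The 0 of Trav7n-6 depends on how shared reads were divided, as described below. The members' summed level was 4459, 3955 and 4793 TPM, or 0.440% ± 0.0421 of all TPM (SD, n = 3).

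The 128 Trav segments summed to 1938, 1698 and 2036 TPM, and the ratio of this sum to Trac was 0.780, 0.764 and 0.749. Variable segments and the constant gene were thus of the same order per length, and both were lowest in library 2. Among the 113 functional genes the median of the mean TPM was 13.4, with quartiles at 4.89 and 20.8. The pseudogenes together held 1.21% ± 0.245 of the segments' TPM (SD, n = 3). Of the 134 variable segments, 66 had a mean of at least 10 TPM and 5 of at least 50 TPM. The level was thus spread over many segments, though each copy counts here by itself. Near-identical copies, whose reads are divided between them as described below, held 37.1% of the segments' TPM. The 10 highest segments held 30.2% ± 0.936 of the segments' TPM.

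**Figure D1:**
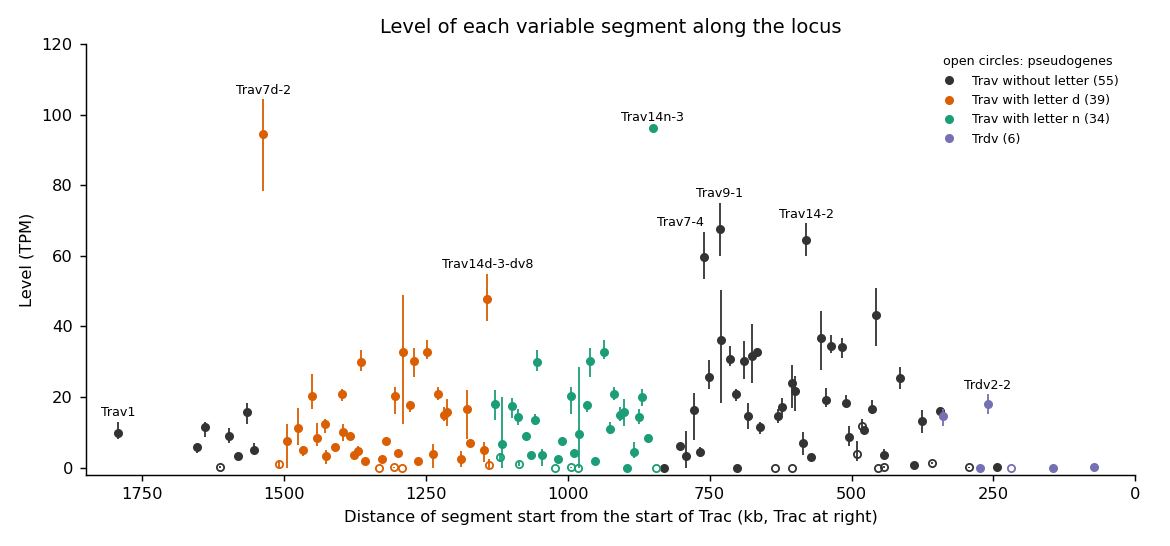
Level of each of the 134 variable segments (vertical axis, TPM; points are means of 3 technical libraries and lines run from the lowest to the highest library) against the distance of its start from the start of Trac (horizontal axis, kb). Segments above 20 TPM occur with and without the letters d and n. Most segments within 400 kb of Trac lie near 0, with Trdv2-2 at 18.1 TPM among the exceptions. The lines of Trav12d-3 and Trav6-5, whose counts moved between copies, are among the longest.

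Trav14n-3 (chr14:53370077-53370575), 850 kb from Trac, was the highest segment by mean level at 96.8, 96.5 and 95.4 TPM. Its libraries differed by less than those of any other segment among the 10 highest, with an SD of 0.73 TPM. Trav7d-2 (chr14:52683964-52684472), 1537 kb from Trac, followed at 100.40, 78.4 and 104 TPM, although its count includes reads that cannot be told from those of its copy Trav7-2, as described below. The order of these leading segments is within their spread.

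Trav9-1 stood at 67.9, 59.9 and 75.1 TPM, Trav14-2 at 64.0, 59.9 and 69.2, and Trav7-4 at 66.8, 53.4 and 58.9. Trav9-1 was the highest of these in each library, though only just above Trav14-2 in library 2, and Trav14-2 and Trav7-4 changed places between libraries. These levels also include shared reads. Of the sequence windows described below, Trav9-1 had 40.4% to itself, Trav14-2 54.4% and Trav7-4 24.9%. Trav14d-3-dv8 had 47.9 ± 6.76 TPM, Trav14-3 43.2 ± 8.31, Trav3-3 36.6 ± 8.41, Trav6-5 36.2 ± 16.4 and Trav4-4-dv10 34.5 ± 2.79 (SD, n = 3). Trav7-4 was above Trav14d-3-dv8, that above Trav14-3, and Trav14-3 above Trav3-3 in each library, while the order from Trav3-3 down changed between libraries. The next segment, Trav5-4, stood at 34.3 ± 2.82 TPM.

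By family, the 9 segments of Trav14 held the most RNA, with 406, 370.0 and 438 TPM and 21.03% ± 0.424 of the segments' TPM (SD, n = 3). All 9 Trav14 segments were detected, and the lowest mean was 29.96 TPM, above the upper quartile of the functional genes. That mean belongs to both Trav14d-1 and Trav14n-1, whose annotated transcripts are identical, and the pair together stood at 59.9 ± 6.06 TPM. Trav14d-2 and Trav14n-2 form another identical pair. Whether both copies of each pair gave RNA cannot be told from these data. The 13 segments of Trav7 held 318, 247 and 313 TPM, but here 2 segments, Trav7d-2 and Trav7-4, made up much of the sum. The 15 segments of Trav6, the family with the most segments, held 179, 173 and 191 TPM and averaged 12.1 TPM each. Trav15 had 9 segments and a sum of only 24.4 ± 3.35 TPM (SD, n = 3), about the level of the lone segment Trav17 at 25.4 ± 3.06.

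Reads that fit several segments mostly fit segments of 1 family. Each segment's annotated transcripts were cut into all windows of 50 bases, the read length implied by the deposited effective lengths, and each window was looked up in all other genes of the locus. Among the 134 variable segments, every shared window was shared within a family, apart from 8 cases that involve the clone-named variable genes C920008G01Rik and B230359F08Rik, which lie in the locus outside the naming rule. One of these cases concerns Trav7n-6, which was at 0 expected counts and shares 99.7% of its windows with C920008G01Rik. The posterior mean counts of Trav7n-6, which average over the ways shared reads could be divided, were 15.59, 22.15 and 21.32. C920008G01Rik held 31.47, 44.2 and 45.04 expected counts, so the 0 of Trav7n-6 does not show that its RNA was absent. Expected counts summed to whole numbers, within 0.03, in every library for 22 of the 26 families with counts, as in Trav9 with 476, 582.98 and 591. Some of the 22, such as Trav1, Trav2, Trav17 and Trav19, hold 1 segment that shares no window. The whole counts of such families say nothing about read sharing. Trav7, Trav13, Trdv2 and Trdv5 were the exceptions.

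**Figure D2:**
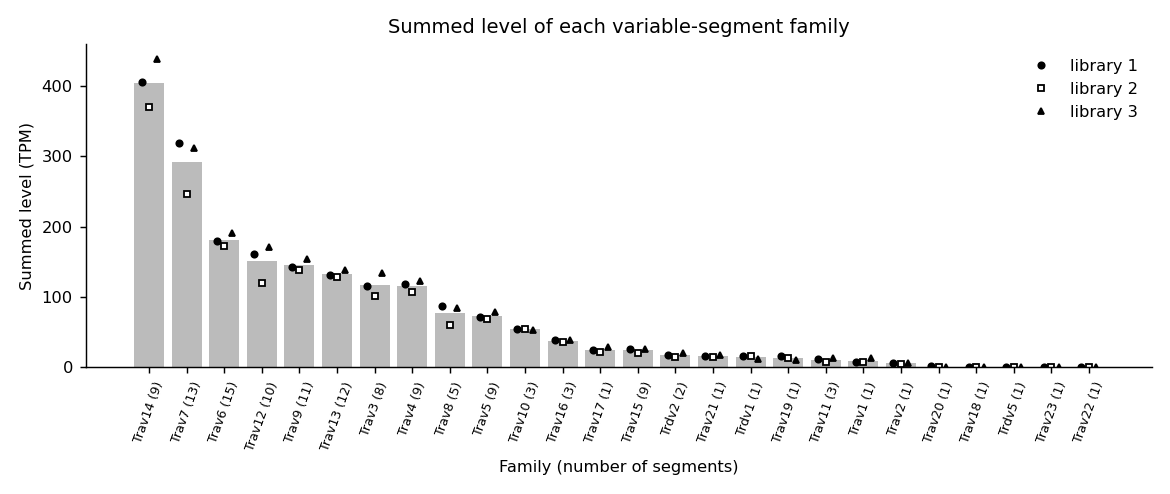
Summed level of each variable-segment family (bars, mean TPM of 3 technical libraries; symbols, each library; number of segments in parentheses; families at 0 not drawn). Trav14 lies between 370.0 and 438 TPM and Trav7 between 247 and 318, above all other families in each library.

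By position, the segments span 1721 kb and lie from 71.9 to 1793 kb from Trac. Of 3 stretches of equal length, described below, the middle one held the largest share of their TPM and also the most segments. The range from 400 to 1000 kb and the blocks of 200 kb were not among the planned divisions, and that range lies toward the Trac end of the span. The 61 segments between 400 and 1000 kb from Trac held 58.9% ± 1.47 of the segments' TPM (SD, n = 3), with 60.5%, 58.5% and 57.7% in libraries 1, 2 and 3. In blocks of 200 kb, the block from 600 to 800 kb held the largest share, 22.9% ± 0.733, and the block from 400 to 600 kb held 18.9% ± 0.105. The block with the most segments, 23 from 1200 to 1400 kb, held 14.9% ± 1.46. The 4 segments beyond 1600 kb held 1.41% ± 0.173.

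At the end close to Trac the share was small. The 12 segments within 400 kb of Trac held 3.52%, 3.58% and 3.02% of the segments' TPM, and most of that came from Trav21-dv12, Trav19, Trdv1 and Trdv2-2. Among the 12 are all 6 segments named for delta alone, including the pseudogene Trdv3. Those 6 held 1.73% ± 0.121 (SD, n = 3), so this share does not describe alpha segments alone. Trav17, 414 kb from Trac, stood at 25.1, 22.4 and 28.5 TPM, whereas Trav18, 389 kb away, stood at 0.84, 0.65 and 1.07 TPM. Trav23, an annotated functional gene 243 kb from Trac, had 1, 1 and 0 counts. Trav17, Trav18 and Trav23 share no window with another gene of the locus.

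The farthest segments were low but present in every library. Trav1 (chr14:52427928-52428876), whose product joined to Traj33 forms the receptor of MAIT cells, lies at 1793 kb and stood at 8.41, 8.08 and 13.1 TPM, from 22, 27 and 40 counts. Trav2 had 6.43, 4.30 and 6.49 TPM, and Trav3-1 had 13.1, 8.81 and 12.9. No window of Trav1 or Trav2 occurs in another gene. Traj33 itself held 4, 6 and 3 counts, and the level of Trav1 cannot be assigned to MAIT cells from these tables.

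**Figure D3:**
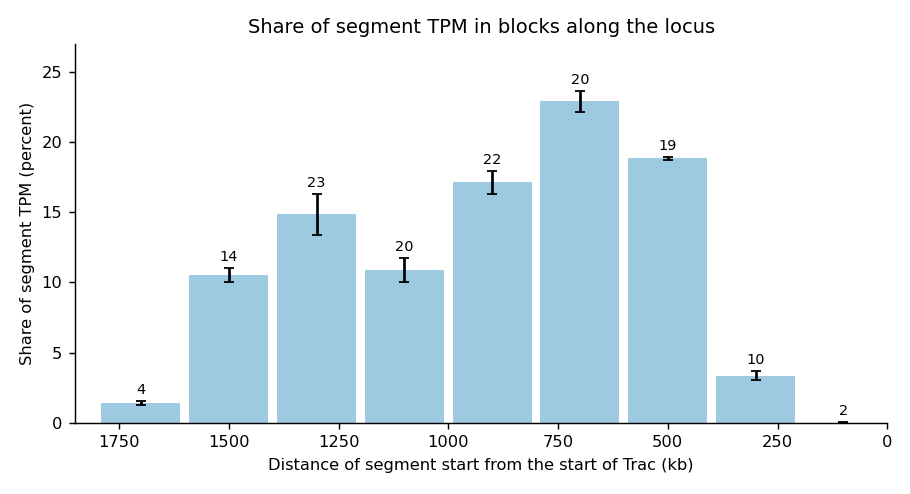
Share of the segments' TPM (vertical axis, percent; bars, mean and SD of 3 technical libraries) in blocks of 200 kb by distance from Trac (horizontal axis, kb), with the number of segments above each bar. The share peaks at 22.9% in the block from 600 to 800 kb and is 0.0146% in the block next to Trac. That last block holds 2 segments, both named for delta alone.

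In 3 stretches of equal length, the far stretch (39 segments, Trav1 to Trav4d-4) held 25.2% ± 0.959 of the segments' TPM, the middle stretch (59 segments, Trav5d-4 to Trav15-1-dv6-1) 49.6% ± 0.525 and the near stretch (36 segments, Trav3-2 to Trdv5) 25.1% ± 0.485 (SD, n = 3). Per functional gene the median of the mean TPM was 8.99 in the far stretch, 14.8 in the middle and 15.9 in the near stretch. The 55 Trav segments without a letter held 46.9% ± 0.926, the 39 with d 27.8% ± 1.19 and the 34 with n 23.6% ± 0.381. Per functional gene the median of the mean TPM was 15.8 without a letter, 9.6 with d and 13.9 with n. These divisions depend on how reads of duplicated segments are divided. With all reads of each near-identical set given to the copy farthest from Trac the far stretch held 37.8%, and with all given to the nearest copy 6.65%, while the near stretch held 24.9% and 25.5%. The letter d likewise ranged from 42.4% to 7.51% and the letter n from 12.3% to 36.3%. In the older deposited counts, which list 105 of the members, the far stretch held 10.9% and the near stretch 48.2%. These are shares of counts, not of TPM, among the listed segments alone. Trav7d-2 of the far stretch is not listed there, and most listed segments that share their whole sequence are at 0, as given below. The older shares therefore do not measure the division of reads alone.

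Of the 134 variable segments, 40 had no window of their own, 77 had under 50% of their windows to themselves and 14 shared none. Much of the sharing was between duplicated copies: 17 pairs (34 segments) had identical annotated transcripts, and 16 of these pairs were d and n copies whose starts lie 310.936 to 311.191 kb apart. The remaining pair was Trav6d-6 and Trav6-6, 695 kb apart. In all 17 pairs both copies carried equal expected counts in every library, within 0.01 counts. Trav14d-1 and Trav14n-1, for example, each had 86.5, 99.7 and 112 counts. Joined by a share of at least 80% of windows in common, 55 segments fell into 27 near-identical sets, and these sets held 37.1% ± 0.325 of the segments' TPM (SD, n = 3).

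The V exons of copies show how little there is to tell them apart. The following are exon sequences of the plus strand from GENCODE M21 transcripts on GRCm38 (mm10), read 5′ to 3′, with capitals at bases that differ from the other copy. Trav11 and Trav11d are shown first because Trav11, joined to Traj18, makes the receptor of invariant NKT cells. Their V exons (Trav11d, chr14:52824623-52824912; Trav11, chr14:53519569-53519859) differ by 1 base at the 3′ end, which the annotation includes in Trav11 alone.
Trav11d: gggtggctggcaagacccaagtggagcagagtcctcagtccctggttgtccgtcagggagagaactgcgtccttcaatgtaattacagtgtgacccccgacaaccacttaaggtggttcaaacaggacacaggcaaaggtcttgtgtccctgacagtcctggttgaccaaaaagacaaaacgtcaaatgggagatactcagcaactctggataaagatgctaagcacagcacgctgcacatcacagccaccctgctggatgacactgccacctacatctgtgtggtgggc
Trav11: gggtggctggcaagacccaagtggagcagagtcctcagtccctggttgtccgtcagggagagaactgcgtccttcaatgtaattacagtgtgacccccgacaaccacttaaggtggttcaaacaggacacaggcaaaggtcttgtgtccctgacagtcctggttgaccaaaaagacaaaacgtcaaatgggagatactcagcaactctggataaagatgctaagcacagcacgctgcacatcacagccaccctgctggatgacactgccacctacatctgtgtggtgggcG

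All reads of this pair were placed on Trav11d. Trav11d had 25.2, 24.6 and 37.4 expected counts, and Trav11 had 0.01, 0 and 0. The posterior mean counts, which average over the ways the shared reads could be divided, were 13.2, 12.0 and 19.1 for Trav11d and 11.9, 12.2 and 18.2 for Trav11. As a set the pair stood at 10.02 ± 2.50 TPM (SD, n = 3). In the older table both are listed with 0 counts. Traj18 held 17, 20 and 21 counts; Traj segments are about as long as a read, so their counts are given here and not their TPM. The pseudogene Trav11n differs from Trav11d at 7 positions of the V exon and had 3.78, 1.44 and 2.58 counts.

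Trav7d-2 and Trav7-2 are shown because this set holds the second highest segment. Their V exons (Trav7d-2, chr14:52684185-52684472; Trav7-2, chr14:53390856-53391142) lie 707 kb apart and differ by 1 annotated base at the 3′ end.
Trav7d-2: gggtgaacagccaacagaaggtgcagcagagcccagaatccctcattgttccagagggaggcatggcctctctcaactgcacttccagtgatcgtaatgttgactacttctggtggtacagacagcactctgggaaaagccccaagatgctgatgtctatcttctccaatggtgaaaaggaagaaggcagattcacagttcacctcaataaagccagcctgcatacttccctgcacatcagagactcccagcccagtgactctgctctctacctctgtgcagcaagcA
Trav7-2: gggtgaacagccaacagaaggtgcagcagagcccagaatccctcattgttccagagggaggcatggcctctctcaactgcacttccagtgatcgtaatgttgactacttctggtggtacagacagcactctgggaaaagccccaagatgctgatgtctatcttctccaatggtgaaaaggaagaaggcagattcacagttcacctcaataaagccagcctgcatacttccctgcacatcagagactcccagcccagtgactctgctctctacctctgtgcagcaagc

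Trav7d-2 took 248, 252 and 307 expected counts, and Trav7-2 took 0, 0.01 and 0.48. The posterior mean counts of Trav7-2 were 51.4, 110.0 and 135, against 197, 142 and 173 for Trav7d-2. The upper deposited credible bound of Trav7-2 reached 46.0, 64.7 and 82.1 TPM, although its maximum-likelihood level was at most 0.16 TPM. The older table lists Trav7-2 with 14, 15 and 15 counts and does not list Trav7d-2. As a set the pair stood at 94.4 ± 14.03 TPM.

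In other sets the favoured copy changed between libraries of the same RNA. The V exons of Trav12d-3 (chr14:52929983-52930282 without its first base) and Trav12n-3 (chr14:53240945-53241244, likewise) are identical in the annotation, and the sequence below therefore stands for both.
Trav12d-3: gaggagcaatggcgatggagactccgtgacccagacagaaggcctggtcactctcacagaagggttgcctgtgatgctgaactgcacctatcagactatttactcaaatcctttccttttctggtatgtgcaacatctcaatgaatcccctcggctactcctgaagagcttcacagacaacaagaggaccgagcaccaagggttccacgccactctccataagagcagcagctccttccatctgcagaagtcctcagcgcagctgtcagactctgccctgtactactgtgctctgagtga

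Trav12d-3 had 31.7, 124 and 149 expected counts, and Trav12n-3 had 74.3, 0 and 0. Their sum was 106, 124 and 149 counts. Trav12n-3 was thus the higher copy in library 1 and listed at 0 in libraries 2 and 3. The posterior mean counts of Trav12n-3 were 50.6, 40.5 and 38.5.

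Trav6-5 and Trav6n-5 behaved alike, and their V exons (Trav6-5, chr14:53491334-53491622; Trav6n-5, chr14:53105056-53105344) differ at 1 position close to the 3′ end, the part of the exon that borders the join.
Trav6-5: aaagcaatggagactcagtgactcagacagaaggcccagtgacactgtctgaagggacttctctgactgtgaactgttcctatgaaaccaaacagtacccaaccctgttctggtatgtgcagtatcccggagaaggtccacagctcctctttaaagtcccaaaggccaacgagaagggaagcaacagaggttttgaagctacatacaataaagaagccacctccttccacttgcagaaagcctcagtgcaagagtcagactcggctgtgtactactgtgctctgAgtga
Trav6n-5: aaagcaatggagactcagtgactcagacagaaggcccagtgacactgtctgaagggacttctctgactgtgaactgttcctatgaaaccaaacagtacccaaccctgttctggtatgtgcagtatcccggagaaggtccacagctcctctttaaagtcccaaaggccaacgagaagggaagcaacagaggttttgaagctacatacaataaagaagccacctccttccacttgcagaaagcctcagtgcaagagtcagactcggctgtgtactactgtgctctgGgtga

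Trav6-5 had 128, 133 and 58.5 expected counts, and Trav6n-5 had 0, 0 and 59.1. In the older counts both copies had reads in every library, 8, 7 and 6 for Trav6-5 and 3, 7 and 3 for Trav6n-5. Another set, Trav6d-3 and Trav6-3, had 26, 41 and 0 counts on the d copy and 0, 0 and 27 on the copy without a letter. The sums of the copies were 128, 133 and 118 counts for Trav6-5 with Trav6n-5, and 26, 41 and 27 for Trav6d-3 with Trav6-3. Such sums do not depend on the division within the set, but still on that with other segments of the family: Trav6-5 shares 29.1% of its windows with Trav6d-5, and Trav12d-3 shares 26.8% with Trav12-3.

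**Figure D4:**
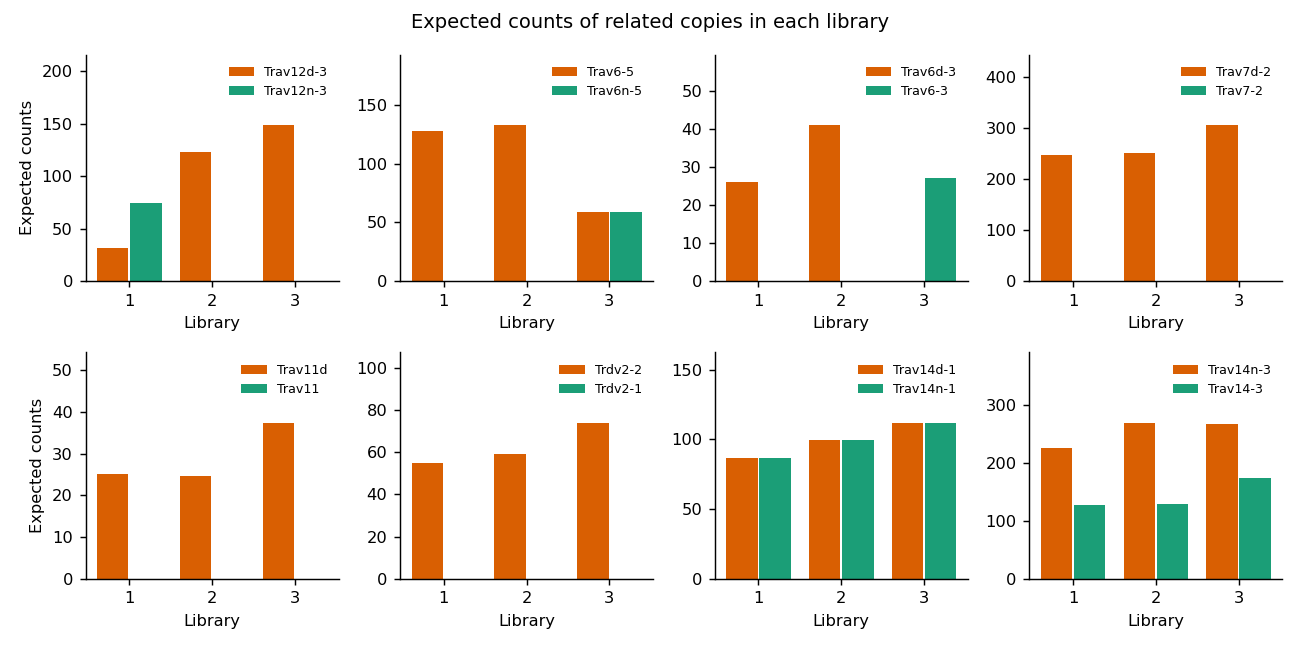
Expected counts (vertical axes) of 8 pairs of related segments in technical libraries 1, 2 and 3 (horizontal axes). In the first 3 pairs the copy with the reads changes between libraries, in the next 3 one copy holds nearly all reads in each library, Trav14d-1 and Trav14n-1 are equal, and Trav14n-3 and Trav14-3 each hold counts in every library.

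Trav14n-3 and Trav14-3 serve as a contrast, since they are copies that reads could separate. Their V exons differ at 6 positions spread along the exon (Trav14n-3, chr14:53370276-53370575; Trav14-3, chr14:53763395-53763694; the first 9 bases of each exon are not shown).
Trav14n-3: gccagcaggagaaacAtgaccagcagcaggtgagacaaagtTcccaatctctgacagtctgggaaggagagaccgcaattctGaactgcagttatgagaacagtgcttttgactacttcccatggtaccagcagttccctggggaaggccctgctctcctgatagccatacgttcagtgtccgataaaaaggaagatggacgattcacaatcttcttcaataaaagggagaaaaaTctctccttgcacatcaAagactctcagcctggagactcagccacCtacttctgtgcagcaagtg
Trav14-3: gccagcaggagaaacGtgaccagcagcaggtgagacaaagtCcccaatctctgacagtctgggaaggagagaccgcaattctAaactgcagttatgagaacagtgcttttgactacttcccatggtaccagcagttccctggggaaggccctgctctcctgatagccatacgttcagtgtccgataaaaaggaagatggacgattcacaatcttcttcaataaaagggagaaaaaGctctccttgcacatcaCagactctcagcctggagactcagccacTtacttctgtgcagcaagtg

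Trav14n-3 had 53.8% of its windows to itself and 227, 270.0 and 267 expected counts. Trav14-3 had 43.3% and 127, 129 and 174 counts. Trav14n-3 was higher in each library, and its posterior mean counts of 227, 269 and 268 were near the expected counts.

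The deposited posterior SD of the count followed the share of a segment's own windows. Among segments with a mean of at least 10 counts, its median was 52.0% of the posterior mean for those with no window of their own (29 segments), 16.8% for those above 0 and under 50% (30 segments), 7.20% for those from 50% to under 100% (32 segments) and 0 for those that share none (7 segments). The first 2 classes held 26.6% ± 1.44 and 34.1% ± 1.38 of the segments' TPM (SD, n = 3). The log2 ratio of posterior mean to maximum-likelihood TPM lay between -0.23 and 0.01 for segments with at least 50% of windows of their own, and between -1.08 and 0.50 below that. Its lowest values were those of Trav11d, Trav7d-2, Trav12d-3, Trdv2-2 and Trav6-5, and its highest those of Trav6n-5, Trav12n-3, Trav9d-4, Trav12d-1 and Trav12n-1. The older counts were at 0 for 28 of the 31 listed segments with no window of their own and for none of the 31 listed from 50% to under 100% or of the 10 listed that share none.

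**Figure D5:**
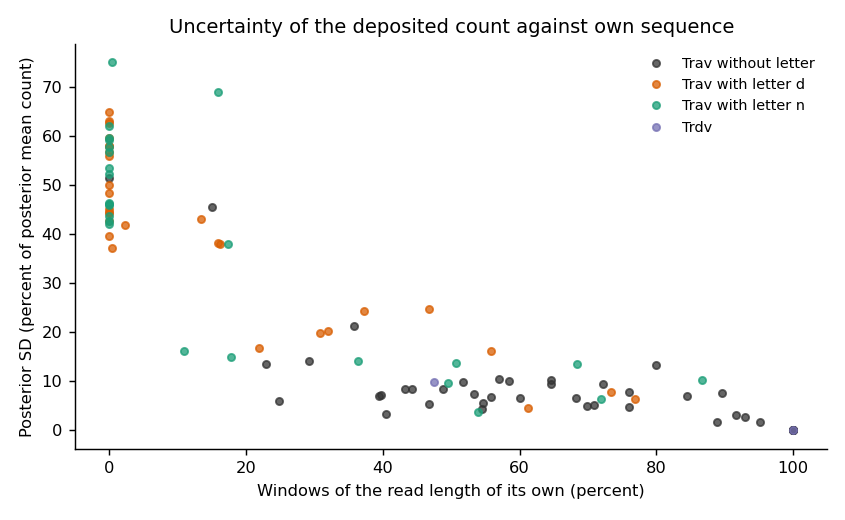
Posterior SD of the deposited count (vertical axis, percent of the posterior mean) against the percent of a segment's 50-base windows found in no other gene of the locus (horizontal axis), for segments with a mean of at least 10 counts (points, means of 3 technical libraries). The median is 52.0% at 0 on the horizontal axis and 0 at 100.

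Among the delta segments, RNA came from Trdv1 and Trdv2-2. Trdv1 (chr14:53881612-53882217) stood at 15.8, 16.5 and 11.9 TPM and shares no window. Trdv2-2 (chr14:53960944-53961602) stood at 18.4, 15.2 and 20.9 TPM, from 54.9, 59.1 and 74.0 counts. Trdv2-1, 14.9 kb from it, had 0 counts in each library, although 47.1% of its windows are its own. The 2 V exons (Trdv2-2, chr14:53961304-53961602; Trdv2-1, chr14:53946362-53946660) differ at 7 positions, 3 among the first 100 bases and 4 among the last 100, with a long identical stretch between them.
Trdv2-2: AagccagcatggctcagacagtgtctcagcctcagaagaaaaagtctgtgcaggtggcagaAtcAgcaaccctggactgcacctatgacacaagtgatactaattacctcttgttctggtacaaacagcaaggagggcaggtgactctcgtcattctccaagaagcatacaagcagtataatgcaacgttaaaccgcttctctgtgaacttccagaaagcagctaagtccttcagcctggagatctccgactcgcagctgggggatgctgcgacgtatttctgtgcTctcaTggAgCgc
Trdv2-1: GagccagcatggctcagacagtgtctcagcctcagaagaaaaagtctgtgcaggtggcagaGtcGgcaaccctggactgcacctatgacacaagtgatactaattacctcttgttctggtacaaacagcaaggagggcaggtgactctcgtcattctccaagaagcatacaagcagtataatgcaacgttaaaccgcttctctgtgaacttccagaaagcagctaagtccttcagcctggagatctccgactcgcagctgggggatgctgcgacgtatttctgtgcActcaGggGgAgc

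Trdv3, a pseudogene, and Trdv4, the segment used by early gamma delta T cells of the skin, had 0 counts in all libraries. A count of 0 allows up to 3 counts, for counting error only. Trdv5 is the only member on the minus strand and lies downstream of Trdc, the last 207 of whose bases it overlaps; it had 0, 1.30 and 2.19 counts. The counts of Trdv5 and Trdc summed to 109, 138 and 139. Whether counting used strand is not given in the sources used here, so reads of these overlapping genes cannot be told apart.

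The Trdv segments summed to 34.1, 32.0 and 33.3 TPM, which was 10.3, 9.98 and 9.49 times the level of Trdc. The matching ratio of Trav segments to Trac was 0.764 ± 0.0158 (SD, n = 3). Per length there was thus more RNA of delta variable segments than of the delta constant gene, and the opposite held for alpha. The log2 ratio of the segments that can serve alpha to the delta-only segments was 5.83 ± 0.10. Trdc has a long annotated transcript, of 3865 bases, and the scale of its TPM rests on that length.

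The 10 segments named for both chains were all detected and together held 164, 150.2 and 161 TPM, or 8.26% ± 0.447 of the segments' TPM (SD, n = 3). Trav14d-3-dv8 and Trav4-4-dv10 led them with the levels given above. Trav6-7-dv9 had 18.3 ± 1.85 TPM, Trav13-4-dv7 16.6 ± 2.19, Trav21-dv12 15.9 ± 1.46, Trav15-1-dv6-1 11.4 ± 1.65 and Trav16d-dv11 7.13 ± 0.542. The others, Trav15-2-dv6-2, Trav15d-1-dv6d-1 and Trav15d-2-dv6d-2, lay between 1.88 and 2.99 TPM. The annotated transcripts of Trav15d-2-dv6d-2 are identical to those of Trav15n-2, which is not named for delta. Trav15d-1-dv6d-1 shares 84.2% of its windows with Trav15n-1. The lower deposited bounds of Trav15d-1-dv6d-1 and Trav15d-2-dv6d-2 were under 1 TPM in each library, so their detection rests on how shared reads were divided. Nothing in the tables tells whether a read of these segments came from an alpha or a delta transcript.

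Of the pseudogenes, Trav8-2 was the highest, with 13.9, 10.4 and 11.4 TPM. It has 64.6% of its windows to itself, but how many of its reads fell in those windows is not given in these data. Trav13-3 had 18.4, 6.64 and 5.49 counts and shares all but 14.98% of its windows, and Trav9n-1 had 7.51, 13.5 and 5.59 counts. The other pseudogenes stayed under 1 TPM in at least 1 library.

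For counts scaled by library size, 19 of 100 members with a mean of at least 10 counts differed between the 3 technical libraries (chi-square homogeneity, adjusted p below 0.05 over all genes tested). Among all 13090 genes tested, 40.0% did, so the members' share was not above the background. When the reads of near-identical sets were summed first, 11 of 84 sets and single members differed, 10 of them called before, against 40.0% of all genes and sets tested. The calls of Trav12d-3, Trav12n-3, Trav6-5, Trav6n-5, Trav6d-3, Trav9d-4, Trav13-3, Trav13n-3 and Trav15n-1 were lost, and the set of Trav6d-7 and Trav6n-7 was gained. Without library 1, 16 members were called (36.7% of all genes tested), without library 2, 9 (14.7%), and without library 3, 9 (27.5%).

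Some segments that were not in such sets differed as well. Trav7-3 had scaled counts of 67.5, 29.2 and 72.5 (adjusted p = 0.000138, chi-square), and Trav8d-2 had 60.8, 24.5 and 55.3 (adjusted p = 0.000901). Both were lowest in library 2. Segments outside the sets can still share reads. Trav7-3 shares 69.1% of its windows with Trav7d-3, which was also called, with scaled counts of 58.5, 23.5 and 34.3. Trav8d-2 has 76.9% of its windows to itself. The part of shared reads in these differences was not tested. Among the members with a mean of at least 50 counts, the ratio of highest to lowest scaled count was 3.94 for Trav12d-3, 2.56 for Trav6-5, 2.48 for Trav7-3, 1.69 for Trav12-1 and 1.65 for Trav19. Trav12-1 and Trav19 did not pass the test (adjusted p = 0.0764 and 0.101), and they are named by the ratio alone.

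The 6 partner and signalling chains of the receptor that were looked up were all detected. Trbc1 and Trbc2, the constant genes of the beta chain, stood at 1217 ± 37.2 and 2415 ± 53.9 TPM, and Cd3d, Cd3e, Cd3g and Cd247 lay between 328 and 761 TPM (SD, n = 3). Of the 60 joining segments of alpha (Traj), 7 had 0 counts in all libraries, and together they held 265, 331 and 358 counts, while Trdj held 1 count over all libraries and Trdd 0. Rag1, Rag2 and Ptcra, which act in developing thymocytes, held 3, 1 and 2 counts in all, and Dntt, which adds bases at the joins, stood at 7.83 ± 0.890 TPM. Dad1, the gene next to the locus behind Trac, stood at 328 ± 11.2 TPM, below Trac in each library.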

How the data were processed

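PolyA-selected RNA of 1 mouse was sequenced in 3 technical libraries, sheared by sonication with a size range of 100 to 300 per the labels. Per the text deposited with the files, reads were assigned on mm10 with GENCODE M21, and with GENCODE M4 for an older table of whole-number counts deposited for 22457 genes. Neither the aligner, nor the counting tool, nor whether counting used strand is given in the sources used here. The authors deposited expected counts (estimated reads that need not be whole), TPM and the percent of TPM per isoform, each also as posterior means, with a posterior SD as a score and credible bounds of TPM as a signal; the level of the bounds is not stated. Lengths were deposited beside them.

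Symbols, positions, biotypes and transcript sequences came from GENCODE M21. Entries that name no gene held 0.247%, 0.200% and 0.325% of counts in libraries 1, 2 and 3 and stayed out of library sizes. The members and lists were chosen with earlier results of these data known. Named members were Trac, Trdc, every Trdv and -dv segment, the 10 highest, the 3 nearest to and farthest from Trac, Trav1, Trav11 and Trav11d, the 5 lowest and highest ratios of posterior mean to maximum-likelihood TPM (mean of at least 10 counts), the 5 largest ratios between libraries (mean of at least 50 counts), identical pairs and the 3 highest pseudogenes; others named were chosen after their values were seen. Among identical pairs, examples are printed.

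Windows of 50 bases were matched on the transcript strand. Sets were joined at 80% of windows shared. Expected counts were rounded, scaled by TMM (edgeR 4.0.16, R 4.3.3) and compared between libraries by a chi-square test of homogeneity (scipy 1.17.1), with p-values adjusted by Benjamini-Hochberg over all genes whose mean reached 10 counts; the test was tested on simulated data. Such p-values measure differences between technical libraries. Alternatives used DESeq2 size factors (1.42.0), library totals, other minimums, pseudocounts of 1, 0.01 and (for counts) 0.5, posterior means, older counts, other windows and leaving out each library. Reads carry no molecular identifiers, so a limit of 3 counts for a count of 0 covers counting error only.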

Additional observations from a re-analysis of the deposited data

Results flagged for a closer look

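Trav7-2 was close to 0 in the main tables (0, 0.01 and 0.48 expected counts) but held 14, 15 and 15 counts in the older count table, 44 in all, above the 3 counts that a count of 0 allows in a library. The older table does not list its copy Trav7d-2. With 3 samples in the group, no member was tested for a library far from the others, and with 1 group no effect could differ between groups.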

How the results depend on the processing

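No paired analysis was possible because the samples form 1 group. Shares of segment TPM in the far, middle and near stretches moved to 28.4%, 37.5% and 34.1% with equal numbers of segments per stretch and to 10.9%, 40.9% and 48.2% with older counts. Values with older counts are shares of counts, not of TPM, among the segments listed there. Posterior means gave 23.1% (far) and 52.0% (middle), expected counts 25.7% (near) and functional genes alone 24.5% (near). Set reads given to the first copy gave 37.8% (far) and 37.2% (middle), and to the last copy 6.65% and 67.9%; these, and sums over sets in the count of members detected (86), were added after seeing the data. Shares without a letter, with d and with n became 72.0%, 11.9% and 12.1% with older counts, 48.2%, 25.6% and 24.4% with posterior means, 43.5%, 42.4% and 12.3% with the first copy, and 54.5%, 7.51% and 36.3% with the last; expected counts gave 48.5% without a letter and 22.2% with n. The log2 ratio of alpha to delta-only segments was 4.57 in older counts. That of Trac to Trdc was 9.15 with a pseudocount of 1 and 7.23 in expected counts, which are not per length, and no value with older counts could be had since Trdc is not in that table. The range of the log2 ratio of posterior mean to maximum-likelihood level was 1.57 for segments under 50% of own windows and 0.23 from 50%; counts in place of TPM gave 1.77 and 0.062. Leaving out 1 library, it ran from 1.63 (without library 2) to 7.53 (without library 3) and 7.87 (without library 1) for the first; Trav12n-3 was at 0 in libraries 2 and 3, and Trav6n-5 in libraries 1 and 2. The number of members that differed between libraries was 8 of 48 with a mean of at least 50 counts (47.8% of all genes) and 11 with sets summed (40.0%), and from 9 to 16 without 1 library (36.7%, 14.7% and 27.5% of all genes without libraries 1, 2 and 3). Between 79 and 116 members were detected under the other minimums and estimates, and from 59 to 104 segments had few windows of their own. Among the named members, 37 levels moved by more than 1 SD with posterior means and 57 shares with older counts, and 6 levels did without each library in turn. Causes were not tested where the alternative does not show them. Depth limits the low segments: a library's 3 counts are near 1 TPM for a segment.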
